A study of Mus musculus with 14 samples.

Results

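The constitutive proteasome subunits were described in 14 lung tumours of 2 mouse models of small cell lung cancer, a neuroendocrine lung cancer. The rows were taken from the authors' table by symbol: protein-coding genes named Psma, Psmb, Psmc, Psmd or Psme with a number, without the interferon-inducible catalytic subunits Psmb8, Psmb9 and Psmb10 and without pseudogenes. This gave 40 genes out of 46517 rows with an Ensembl identifier, 21547 of them protein-coding. By role they were 8 genes of the α ring, 8 of the β ring, 6 ATPases and 3 other subunits of the base, 8 subunits of the lid, 3 assembly chaperones that carry Psmd numbers and 4 activators. Psme2b carries a letter after its digit and fell outside the rule.

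The proteasome is the protease that degrades proteins tagged with ubiquitin. Its core is a barrel of α rings, which gate the entrance, around β rings, which carry the active sites in Psmb5, Psmb6 and Psmb7. The regulatory particle sits on the core: its base of ATPases unfolds the substrate and feeds it in, and its lid removes the ubiquitin chain. Activators are alternative caps. In cells exposed to interferon γ, Psmb8, Psmb9 and Psmb10 replace the constitutive catalytic subunits and the activators Psme1 and Psme2 are induced, which favours the making of peptides for antigen presentation.

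The RPM group held 11 tumours of Rb1 fl/fl, Trp53 fl/fl mice with a Cre-activated Myc T58A allele, 9 of them LSL/LSL and 2 of them LSL/+ (replicates 2 and 4). The RPR2 group held 3 tumours of p130 fl/fl mice (p130 is the product of Rbl2) that also carried Rb1 fl/fl and Trp53 fl/fl. In every mouse an adenovirus delivered Cre under the Cgrp promoter, whose activity in the lung lies in neuroendocrine cells, and the tumours were untreated and cut from the lung by eye. Floxed Rb1 and Trp53 are thus shared, and the groups differ in the Myc allele and in Rbl2. Mouse ages were not given, and nothing in the labels says that the libraries came from separate mice: RPM replicates 6 and 7 share a number in their titles, as do RPM replicates 10 and 11. P-values then measure the spread between these libraries, which may in part be technical.

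The values are FPKM, fragments scaled by transcript length and by sequencing depth, so levels can be compared between genes. The FPKM of a library summed to 599119 to 939971 in RPM and to 523529 to 825292 in RPR2. Steps of single reads in the low values correspond to an estimated 17.2 to 19.9 M reads per RPM library and 21.3 to 22.9 M reads per RPR2 library. Myc, the gene of the RPM allele, had 48.4 to 384 FPKM in RPM and 4.68, 6.83 and 13.6 FPKM in RPR2. The 8 neuroendocrine markers summed to 226 to 1269 FPKM in RPM, and to 2320, 3440 and 12.3 FPKM in RPR2 replicates 1, 2 and 3. RPR2 replicate 3 thus went against its label, with the 7 alveolar type 2 markers at 51851 FPKM, against 3.02 to 877 FPKM in RPM and 1225 and 1935 FPKM in the other RPR2 libraries. The 3 club cell markers summed to 0.88 to 1522 FPKM (median 264) in RPM and to 3464, 25526 and 839 FPKM in RPR2, so that replicates 1 and 2 lay above every RPM library, as they did for the alveolar type 2 markers. The part of these cells in the differences between the models was not tested. Results were computed with and without RPR2 replicate 3. A prefix in the library codes also separated RPR2 (12416) from RPM (12135, or 12138 in replicate 9). Its meaning is not given, and it cannot be told apart from the model.

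Promoter windows were compared because the members are known to share regulators. RefSeq windows from 250 bases before to 50 after the start (GRCm38.p6) were found for 33 of the 40 members, without Psma8, Psmb1, Psmb2, Psmb7, Psmc3, Psmd3 and Psmd7. The motifs were searched on both strands. A gene was counted where any of its windows held a match. The antioxidant response element core TGACNNNGC, a motif bound by Nrf1 and Nrf2 (Nfe2l1 and Nfe2l2), stood in 6 of 33 members (18.2%), against 13.99% of all 27025 genes with a window. The E-box CACGTG, to which Myc can bind, stood in 3 members (9.09% against 8.09%), and CCAAT stood in 13 (39.4% against 41.1%). The core of the interferon-stimulated response element (TTTC, a pair of any bases, then TTTC) was added after the values had been seen and stood in 4 members (12.1% against 3.99%), Psmb3, Psmd4, Psmd9 and Psme1. Psme2 had no match, and neither did the inducible genes Psmb8, Psmb9 and Psmb10 (0 of 3), which are not members. A match is a run of letters and no binding was measured.

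The sequences of 6 windows are printed, from catalytic, base, lid and activator genes described further on. Each of them holds a match, so they do not stand for the members as a whole. They run 5′ to 3′ on the strand of the gene, and capitals mark the motifs. Positions give the leftmost base of a match, with the start base at 1 and the base before it at -1.
Psmb5, chr14:54617946-54618245, minus strand, antioxidant response element core at -47: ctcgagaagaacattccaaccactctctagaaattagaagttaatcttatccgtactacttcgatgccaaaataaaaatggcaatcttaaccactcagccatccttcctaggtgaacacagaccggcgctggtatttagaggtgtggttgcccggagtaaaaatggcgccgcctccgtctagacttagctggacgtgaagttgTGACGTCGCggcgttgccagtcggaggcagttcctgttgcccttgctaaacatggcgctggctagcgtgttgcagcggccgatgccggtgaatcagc
Psmb6, chr11:70525107-70525406, plus strand, the same motif at -9: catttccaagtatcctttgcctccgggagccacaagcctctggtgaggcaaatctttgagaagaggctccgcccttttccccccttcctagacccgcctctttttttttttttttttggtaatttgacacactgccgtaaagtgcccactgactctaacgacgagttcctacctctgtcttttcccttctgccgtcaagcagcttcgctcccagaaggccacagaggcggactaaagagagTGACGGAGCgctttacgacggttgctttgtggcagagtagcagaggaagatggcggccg
Psmc6, chr14:45329574-45329873, plus strand, the same motif in reverse at -227: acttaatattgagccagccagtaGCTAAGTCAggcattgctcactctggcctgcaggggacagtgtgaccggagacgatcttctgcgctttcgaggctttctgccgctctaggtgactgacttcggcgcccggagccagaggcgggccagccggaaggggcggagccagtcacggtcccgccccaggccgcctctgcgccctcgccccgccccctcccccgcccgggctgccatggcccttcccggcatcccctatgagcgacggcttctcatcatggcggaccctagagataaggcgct
Psmd12, chr11:107479278-107479577, plus strand, the same motif in reverse at -247: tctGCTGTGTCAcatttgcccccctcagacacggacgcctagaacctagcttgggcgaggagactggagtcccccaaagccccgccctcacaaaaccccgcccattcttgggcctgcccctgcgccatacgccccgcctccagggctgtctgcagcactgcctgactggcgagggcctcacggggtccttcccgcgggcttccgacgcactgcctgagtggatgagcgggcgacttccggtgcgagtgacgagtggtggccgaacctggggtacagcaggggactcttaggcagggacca
Psme1, chr14:55578244-55578543, plus strand, interferon-stimulated response element core at 10: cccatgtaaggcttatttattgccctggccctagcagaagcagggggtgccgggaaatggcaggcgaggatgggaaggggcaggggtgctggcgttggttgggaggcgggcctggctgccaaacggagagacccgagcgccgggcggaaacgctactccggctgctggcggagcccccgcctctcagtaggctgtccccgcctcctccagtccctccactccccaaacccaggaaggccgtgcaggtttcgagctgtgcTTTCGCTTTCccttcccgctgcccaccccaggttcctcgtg
Psme3, chr11:101315963-101316262, plus strand, E-box at -44 and CCAAT in reverse at -14: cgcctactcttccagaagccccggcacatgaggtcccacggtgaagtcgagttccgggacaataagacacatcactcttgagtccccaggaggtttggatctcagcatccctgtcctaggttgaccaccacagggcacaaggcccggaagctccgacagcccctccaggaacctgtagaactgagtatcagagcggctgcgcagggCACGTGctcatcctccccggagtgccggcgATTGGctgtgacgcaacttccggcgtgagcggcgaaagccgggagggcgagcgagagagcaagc

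Most constitutive proteasome genes were more abundant in RPM tumours than in RPR2 tumours, and the 2 interferon-inducible activators were less abundant. Of the 40 members, 38 passed a filter on low values (1 FPKM or more in 3 or more libraries) and were tested with limma on log2(FPKM + 1), with Benjamini-Hochberg adjustment over all 15719 genes tested and a threshold of 0.05. Of these, 25 were higher, 3 were lower and 10 were not called, where 18.4% of all tested genes were higher and 22.8% were lower (41.2% in either direction). The median log2 difference of the 38 was 0.63, with a range of -1.98 to 1.07, against a median of -0.06 over all tested genes. The RPM and RPR2 values did not overlap for 16 higher and 2 lower members, beside 11.1% and 13.6% of all tested genes. In macrodissected tumours, fewer cells of a type and less RNA per cell cannot be told apart.

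The count changed most with 1 scaling of the libraries, to equal totals, and without RPR2 replicate 2. Other scalings changed it less: 23 members were higher with median-of-ratios scaling and 24 with quantile normalization, beside 2987 and 3657 of 15719 genes. Bringing every library to the same total, as TPM does, moved the median of all genes to -0.23 and left 17 members higher and 2 lower, beside 11.8% and 23.3% of all genes. The median of the members was then 0.43. With array weights in the fit, 29 members were higher and 3 lower, beside 4290 and 6577 of 15719 genes. Without RPR2 replicate 3, 24 members were higher and 3 lower, beside 16.4% and 27.4% of 15406 genes, with a median of 0.58. Without RPR2 replicate 1 there were 20 higher members, beside 2469 of 15312 genes. Without RPR2 replicate 2 there were 17, beside 2276 of 15292 genes.

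**Figure D1:**
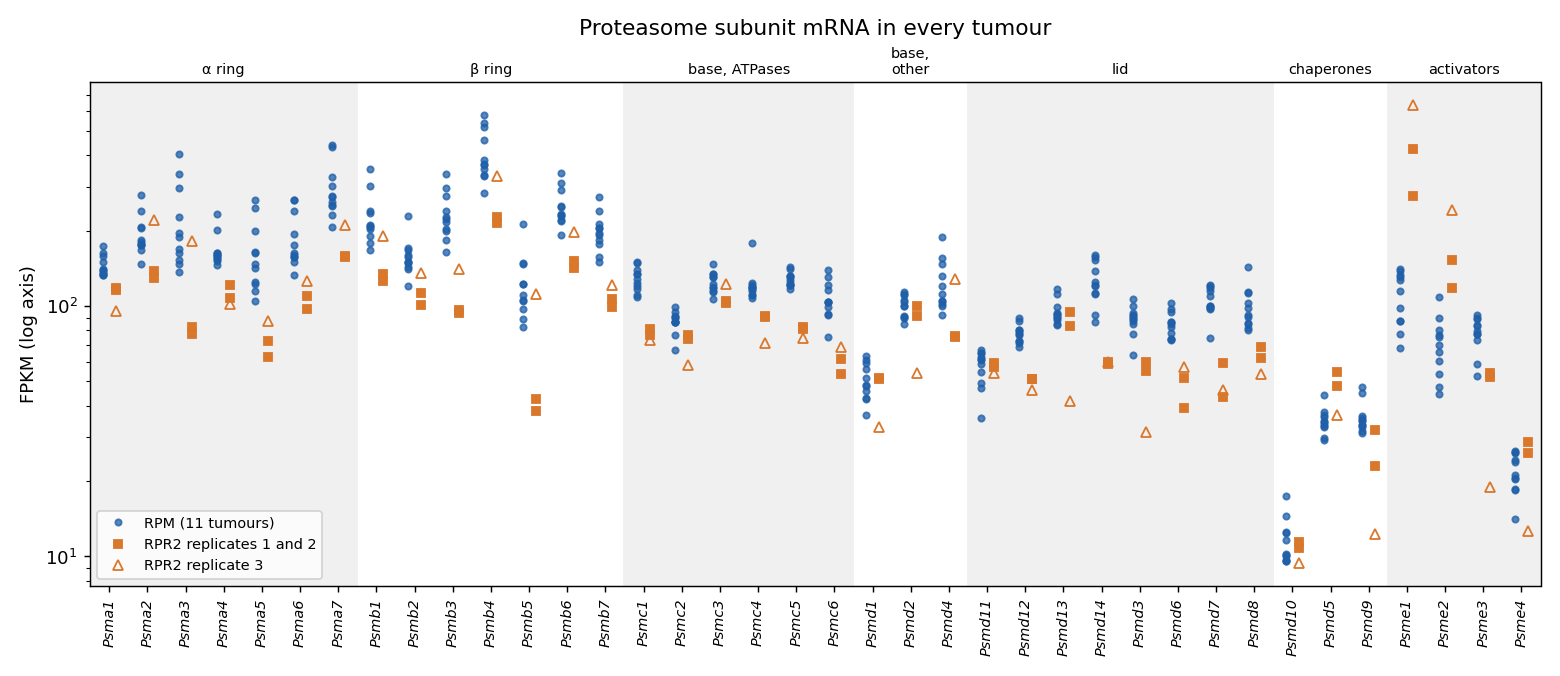
FPKM of each tested member (log axis) in the 11 RPM tumours (blue circles), RPR2 replicates 1 and 2 (orange squares) and RPR2 replicate 3 (open triangles), grouped by role. Most core and lid genes lie higher in RPM, and Psme1 (67.8 to 140 FPKM in RPM) and Psme2 lie below every RPR2 tumour.

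**Figure D2:**
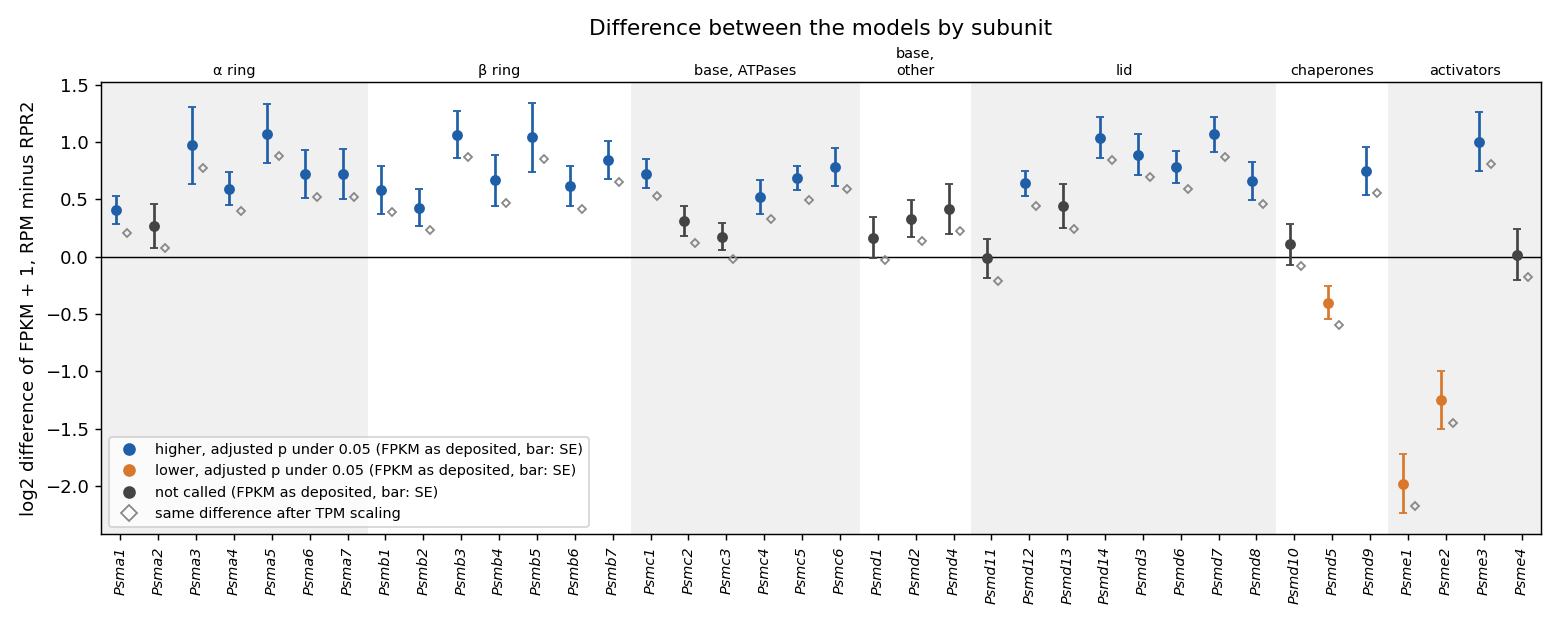
The log2 difference of FPKM + 1, RPM minus RPR2, for each tested member with its SE; colour gives the limma call at an adjusted p of 0.05, and open diamonds give the difference after TPM scaling. Differences run from -1.98 for Psme1 to 1.07 for Psma5, and TPM scaling moved them downward.

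In the α ring, 6 of the 7 tested genes were higher in RPM and 1 was not called, with a median log2 difference of 0.72. Psma7 had the highest mean in both groups, with 207 to 439 FPKM (median 274) in RPM and 159, 157 and 211 FPKM in RPR2. It was higher by 0.72 ± 0.21 (log2 difference ± SE, adjusted p = 0.0145), with RPR2 replicate 3 just inside the RPM range, and the call was lost without RPR2 replicate 1 or 2. Psma1 had the lowest mean of the tested genes in RPM, with 133 to 174 FPKM (median 140) in RPM, against 116, 118 and 95.3 FPKM in RPR2. Its groups did not overlap, and it was higher by 0.41 ± 0.12 (adjusted p = 0.0153), a call that was lost with TPM scaling, with quantile normalization and without RPR2 replicate 3.

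Psma5 showed the smallest p of the ring, with 105 to 264 FPKM (median 147) in RPM and 72.6, 62.9 and 87.5 FPKM in RPR2. It was higher by 1.07 ± 0.25 (adjusted p = 0.0037), every RPM library lying above every RPR2 library. Psma4 (0.59 ± 0.14) and Psma6 (0.72 ± 0.21) were also higher without overlap, Psma4 no longer with TPM scaling and Psma6 no longer without RPR2 replicate 2. Psma2 was not called: it had 148 to 277 FPKM (median 180) in RPM and 138, 130 and 221 FPKM in RPR2, a difference of 0.27 ± 0.19 (adjusted p = 0.277). Its RPR2 libraries were split, replicate 3 being above the RPM median, and it was called higher without that library (0.51) and with array weights. Psma8, a subunit of the testis proteasome, was below the filter, at 0 to 0.16 FPKM in RPM and 0, 0 and 0.27 FPKM in RPR2.

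Psma3 ranged widely in both groups, with 137 to 404 FPKM (median 190) in RPM and 82.2, 77.1 and 182 FPKM in RPR2, and was higher by 0.97 ± 0.33 (adjusted p = 0.0301). The call was lost without RPR2 replicate 1 or 2, without a filter and with median-of-ratios scaling. Psma3 also has a pseudogene copy, Gm13835, identical over 685 bases, which averaged 152 FPKM in RPM and was listed at 81.8, 78.0 and 98.2 FPKM in RPR2. Reads of the pair can only be divided by estimation, so the level of Psma3 is uncertain. With the copies added to their members, chosen as an alternative after seeing the data, no call changed.

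In the β ring all 7 tested genes were higher in RPM, with a median log2 difference of 0.66, and 6 of them kept the call with TPM scaling. The catalytic subunit Psmb5, with the chymotrypsin-like activity that bortezomib inhibits, had 82.2 to 214 FPKM (median 110) in RPM and 38.2, 42.5 and 112 FPKM in RPR2. RPR2 replicates 1 and 2 lay below every RPM library and replicate 3 lay near the RPM median. The difference was 1.04 ± 0.30 (adjusted p = 0.0124), and 1.53 without RPR2 replicate 3. The call was lost without RPR2 replicate 1 or 2. Gm3375, a pseudogene 98.9% identical to Psmb5 over 796 bases, averaged 68.1 FPKM in RPM and had 31.6, 40.8 and 61.4 FPKM in RPR2, so the Psmb5 level depends on how reads were divided.

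The catalytic subunit Psmb6, with caspase-like activity, had 193 to 340 FPKM (median 233) in RPM and 142, 151 and 197 FPKM in RPR2. Only RPR2 replicate 3 reached the RPM range, and Psmb6 was higher by 0.62 ± 0.17 (adjusted p = 0.00997). Psmb7, with trypsin-like activity, had 150 to 273 FPKM (median 196) in RPM and 107, 99.3 and 122 FPKM in RPR2. Its groups did not overlap and the difference was 0.85 ± 0.17 (adjusted p = 0.0009). Leaving out RPR2 replicate 1 or 2 ended the Psmb6 call and not the Psmb7 call.

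Of the structural β subunits, Psmb4 had the highest level of all members in RPM, with 282 to 580 FPKM (median 369), against 227, 214 and 330 FPKM in RPR2 (0.66 ± 0.22, adjusted p = 0.0255). Psmb3 showed the smallest p of the ring, with 165 to 336 FPKM (median 223) in RPM and 93.9, 96.5 and 141 FPKM in RPR2. It was higher by 1.07 ± 0.20 (adjusted p = 0.0007) without overlap. Psmb1 (0.58 ± 0.21) and Psmb2 (0.43 ± 0.16) were higher with overlapping groups. The Psmb2 call, at an adjusted p of 0.0442, was lost in 13 of 26 alternatives, and leaving out RPR2 replicate 1 or 2, or median-of-ratios scaling, ended the calls of Psmb1, Psmb2 and Psmb4. Without a filter Psmb1 and Psmb2 were not called. Psmb11, the thymus-specific subunit, was below the filter, at 0.14 to 0.39 FPKM in RPM and 0.32, 0.37 and 0.48 FPKM in RPR2.

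In the base, 4 of the 6 ATPases were higher in RPM and 2 were not called, with a median log2 difference of 0.61. Psmc1, which in RPM shared the top of the ATPases with Psmc5, had 109 to 150 FPKM (median 128) in RPM and 81.3, 76.5 and 73.5 FPKM in RPR2 (0.72 ± 0.12, adjusted p = 0.0003). Psmc5 varied least among the RPM tumours, at 117 to 144 FPKM (median 127), against 81.0, 82.2 and 74.5 FPKM in RPR2 (0.69 ± 0.10, adjusted p = 0.0001). Neither gene overlapped between the groups. Psmc4 (0.52 ± 0.15) and Psmc6 (0.78 ± 0.17) were higher without overlap too, and the Psmc4 call was lost with TPM scaling and without RPR2 replicate 3.

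The other ATPases differed less. Psmc2, the lowest in RPM, had 67.0 to 98.8 FPKM (median 86.4) in RPM and 77.0, 73.8 and 58.4 FPKM in RPR2, a difference of 0.31 ± 0.13 (adjusted p = 0.0666) that was called without RPM replicate 5 and with array weights. Psmc3 had 107 to 147 FPKM (median 123) in RPM and 103, 105 and 123 FPKM in RPR2, a difference of 0.17 ± 0.12 (adjusted p = 0.262) that was -0.02 with TPM scaling and was called higher with array weights. For Psmc2 RPR2 replicates 1 and 2 lay within the RPM range, and for Psmc3 only replicate 3 did.

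None of the 3 other base subunits was called. Psmd4, a ubiquitin receptor, had 91.8 to 188 FPKM (median 111) in RPM and 74.9, 75.7 and 128 FPKM in RPR2 (0.42 ± 0.22, adjusted p = 0.14), and it was called higher without RPR2 replicate 3 (0.67) and with array weights. Psmd1, a scaffold subunit, had 36.8 to 63.3 FPKM (median 48.5) in RPM and 51.7, 51.2 and 32.8 FPKM in RPR2 (0.17 ± 0.18, adjusted p = 0.486). Psmd2, the other scaffold subunit, had 84.5 to 114 FPKM (median 100.4) in RPM and 100.1, 90.9 and 54.0 FPKM in RPR2 (0.33 ± 0.16, adjusted p = 0.116). Its difference was 0.06 without RPR2 replicate 3, and it was called higher without RPR2 replicate 1 and with median-of-ratios scaling. For both scaffold subunits RPR2 replicate 3 was the lowest library and the other RPR2 libraries lay within the RPM range.

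In the lid, 6 of 8 genes were higher in RPM, each without overlap, and 2 were not called, with a median log2 difference of 0.72. Psmd14, the deubiquitinase of the lid, had 86.6 to 161 FPKM (median 121) in RPM and 59.7, 58.6 and 60.0 FPKM in RPR2. It was higher by 1.04 ± 0.18 (adjusted p = 0.0003), and the RPR2 libraries lay close together. Psmd7, which pairs with Psmd14, had the smallest p of the subunits that were higher, with 74.8 to 121 FPKM (median 100.2) in RPM and 43.2, 59.4 and 46.4 FPKM in RPR2 (1.07 ± 0.15, adjusted p = 6.3e-05).

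The other called subunits of the lid were higher by 0.89 ± 0.18 for Psmd3, 0.78 ± 0.14 for Psmd6, 0.66 ± 0.17 for Psmd8 and 0.64 ± 0.11 for Psmd12. With TPM scaling the calls of Psmd3 and Psmd12 were lost. Psmd11, the lowest of the lid in RPM, had 35.8 to 66.9 FPKM (median 61.0) in RPM and 59.2, 57.3 and 54.0 FPKM in RPR2, a difference of -0.01 ± 0.17 (adjusted p = 0.955). Psmd13 had 84.2 to 117 FPKM (median 92.5) in RPM and 94.7, 83.4 and 42.0 FPKM in RPR2 (0.44 ± 0.19, adjusted p = 0.0751). Without RPR2 replicate 3, its lowest library, the Psmd13 difference was 0.09, and it was called higher without RPR2 replicate 1 and with median-of-ratios scaling.

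The chaperones that carry Psmd numbers help the base to assemble and leave it afterwards, and they showed no common direction. Psmd9 was higher in RPM, with 31.3 to 47.6 FPKM (median 34.8) in RPM and 32.1, 22.9 and 12.3 FPKM in RPR2 (0.75 ± 0.21, adjusted p = 0.0105), a call lost with TPM scaling and without RPR2 replicate 3 (0.39). Psmd5 was lower, with 29.2 to 44.0 FPKM (median 34.4) in RPM and 54.6, 48.2 and 36.8 FPKM in RPR2 (-0.40 ± 0.14, adjusted p = 0.0343). Its call was lost with TPM scaling and without RPR2 replicate 1 or 2. Psmd10, also known as gankyrin, was not called, with 9.58 to 17.4 FPKM (median 10.2) in RPM and 10.8, 11.4 and 9.42 FPKM in RPR2 (0.11 ± 0.18, adjusted p = 0.663).

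The activators went in opposite directions. Psme1, which forms an interferon-inducible ring with Psme2, was the member with the smallest p, at 67.8 to 140 FPKM (median 115) in RPM and 276, 425 and 636 FPKM in RPR2. It was lower by -1.98 ± 0.26 on the log2 scale (adjusted p = 3.3e-05), the highest RPM library lying below the lowest RPR2 library. Psme2 had 44.5 to 109 FPKM (median 69.9) in RPM and 118, 152 and 241 FPKM in RPR2, lower by -1.25 ± 0.25 (adjusted p = 0.0012) and again without overlap. Both kept the call with TPM scaling and without RPR2 replicate 3, where the differences were -1.68 and -0.97. The genes lie near each other at chr14:55578123-55581529 (Psme1, plus strand) and chr14:55587441-55591113 (Psme2, minus strand) on mm10.

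Psme3, the nuclear activator, had 52.8 to 92.4 FPKM (median 79.3) in RPM and 54.0, 52.1 and 19.02 FPKM in RPR2. It was higher by 1.005 ± 0.254 (adjusted p = 0.0055), with RPR2 replicate 3 far below the other libraries. Without that library the difference was 0.53, still called, and with TPM scaling the call was lost. Psme4, a large activator that acts on histones in testis and in DNA repair, had 14.2 to 26.3 FPKM (median 21.1) in RPM and 28.8, 25.95 and 12.6 FPKM in RPR2 and was not called (0.02 ± 0.22, adjusted p = 0.954). RPR2 replicate 1 lay above the RPM range, replicate 2 near its top and replicate 3 below it.

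The exchange of catalytic subunits was compared through ratios within a library. A ratio of FPKM does not depend on the scaling of the library, whereas the tested log2 ratio of FPKM + 1 does so slightly for genes of a few FPKM. The inducible Psmb8 had 1.57 to 12.0 FPKM (median 6.19) in RPM and 76.2, 72.6 and 83.3 FPKM in RPR2, and Psmb9 had 1.59 to 8.85 FPKM (median 3.42) in RPM and 50.1, 52.1 and 67.9 FPKM in RPR2. Both were lower in RPM, by -3.63 and -3.65. Psmb10 had 9.65 to 32.1 FPKM (median 14.9) in RPM and 15.2, 21.1 and 37.1 FPKM in RPR2 and was not called (-0.49 ± 0.34, adjusted p = 0.261), but was called lower with TPM scaling. The inducible genes made up 2.95 to 5.93% (median 4.24%) of the summed FPKM of the 6 catalytic genes in RPM, and 33.0%, 33.3% and 30.4% in RPR2.

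FPKM of Psmb8 over Psmb5, its constitutive counterpart, was 0.0128 to 0.113 (median 0.0465) in RPM and 1.99, 1.71 and 0.743 in RPR2. Psmb9 over Psmb6 was 0.00682 to 0.0353 (median 0.0149) in RPM and 0.352, 0.346 and 0.345 in RPR2. Psmb10 over Psmb7 was 0.0454 to 0.118 (median 0.084) in RPM and 0.142, 0.212 and 0.304 in RPR2. No ratio overlapped between the groups, and the differences in mean log2 ratio of FPKM + 1 were -4.67, -4.26 and -1.34. The ratio of Psme1 to Psme3 was 0.734 to 2.66 (median 1.48) in RPM and 5.11, 8.15 and 33.4 in RPR2, and that of Psme2 to Psme3 was 0.482 to 2.06 (median 0.895) in RPM and 2.18, 2.92 and 12.7 in RPR2. Their differences were -2.98 and -2.26, again without overlap. Without RPR2 replicate 3 the difference of Psme2 over Psme3 was -1.496 and that of Psme1 over Psme3 was -2.208. Each of the 5 ratios was lower in 11 of 11 RPM libraries than in any RPR2 library, and each had a two-sided exact permutation p of 0.0055 over 364 splits, the smallest p these splits can give (0.0055 also after Benjamini-Hochberg adjustment over the 5).

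**Figure D3:**
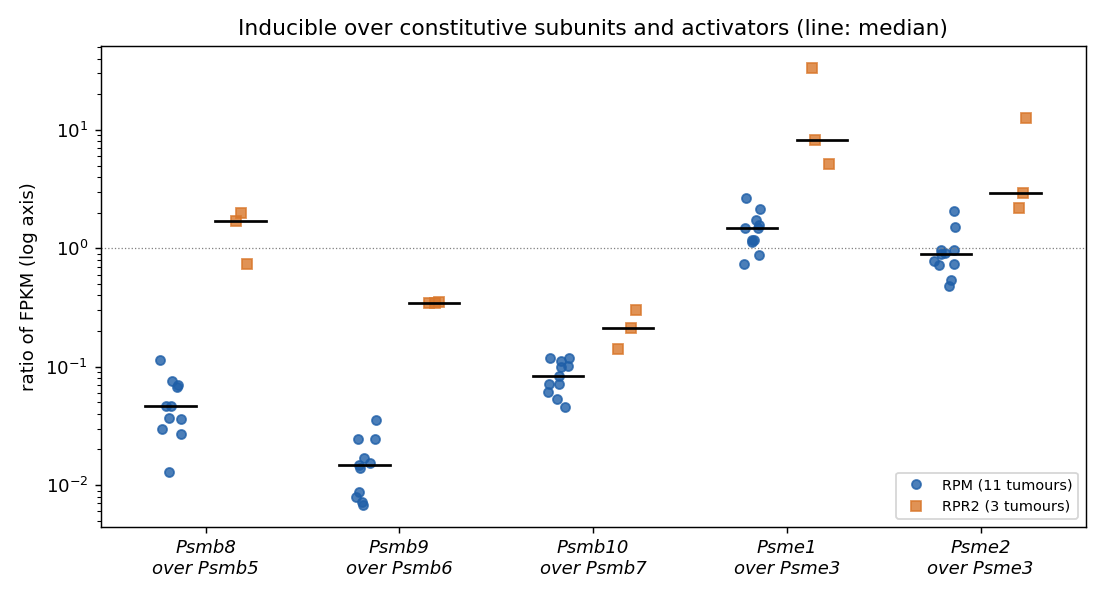
Ratios of FPKM (log axis) of the inducible to the constitutive catalytic subunit and of Psme1 and Psme2 to Psme3, with 11 RPM tumours (blue) left of 3 RPR2 tumours (orange) and a line at each median. Every RPM point lies below every RPR2 point of the same ratio, for example 0.0128 to 0.113 against 0.743 to 1.99 for Psmb8 over Psmb5.

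Markers of immune cells, which carry inducible subunits, were recorded beside these ratios. The 6 macrophage markers summed to 25.1 to 57.1 FPKM (median 47.6) in RPM and to 49.8, 32.2 and 193 FPKM in RPR2, with no marker below 1 FPKM in every RPM library. The 4 T cell markers summed to 0.65 to 3.92 FPKM in RPM and to 4.32, 2.42 and 11.6 FPKM in RPR2, and the 3 neutrophil markers to 0.58 to 27.1 FPKM in RPM and to 5.05, 6.24 and 14.9 FPKM in RPR2. RPR2 replicates 1 and 2 lay within or near the RPM ranges of these sums, and only replicate 3 was well above the RPM macrophage and T cell ranges. The macrophage sum of replicate 3 came mostly from Cd14 (96.0 FPKM) and Cd68 (60.6 FPKM). Csf1r, Marco and Mrc1 also lay above every RPM library there, whereas Adgre1 (1.5 FPKM) lay within the RPM range (0.84 to 6.2 FPKM). The T cell sum of replicate 3 came mostly from Cd2 (10.6 FPKM), while Cd3e, Cd3d and Cd8a were below 1 FPKM in every RPR2 library. The 3 B cell markers summed to 0.26 to 6.86 FPKM in RPM and to 10.1, 3.21 and 0.38 FPKM in RPR2. The part of these cells in the ratios was not tested.

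Factors of the interferon response also differed. All 7 listed genes were lower in RPM. Irf9, a subunit of the interferon-activated factor, had 4.51 to 7.44 FPKM (median 5.12) in RPM and 25.1, 32.8 and 19.5 FPKM in RPR2 (-1.98 ± 0.19, adjusted p = 1.8e-06). Nlrc5, an activator of antigen presentation genes, had 0.23 to 2.33 FPKM (median 0.54) in RPM and 3.65, 4.34 and 5.75 FPKM in RPR2, and Irf1 had 2.88 to 14.03 FPKM (median 4.86) in RPM and 43.6, 42.8 and 20.4 FPKM in RPR2. They were lower by -1.72 and -2.41, without overlap. The interferon-stimulated response element core printed in the Psme1 window is a description of letters and was not tied to these levels by any test.

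The rest of the pathway was read from lists of 44 genes, of which 42 were tested, 11 were higher and 14 were lower, beside 18.4% and 22.8% of all tested genes. Of the 5 core assembly factors, 4 were higher. Psmg2 had 40.5 to 62.4 FPKM (median 49.5) in RPM and 27.1, 23.9 and 25.0 FPKM in RPR2 (0.93 ± 0.14, adjusted p = 9.5e-05), and Psmg1, its partner in α ring assembly, had 31.0 to 58.3 FPKM (median 43.0) in RPM and 15.6, 13.8 and 29.8 FPKM in RPR2 (1.13 ± 0.22). Psmg3 and Psmg4, the other chaperone pair, were higher by 0.95 and 1.14. Pomp, which matures the core, had 137 to 249.1 FPKM (median 188) in RPM and 165, 122 and 142 FPKM in RPR2 and was not called (0.39 ± 0.19, adjusted p = 0.107).

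Among 9 other subunits and partners of the regulatory particle, 2 were higher and 1 was lower. The ubiquitin receptor Adrm1 was higher by 0.43 ± 0.14 and the deubiquitinase Usp14 by 0.62 ± 0.17, both calls being lost with TPM scaling, and Psmf1, an inhibitor of the core, was lower by -0.65 ± 0.16. Of 8 shuttle factors and unfoldase genes, Ubqln4 (0.80), Ubqln1 (0.65) and Rad23b (0.89) were higher, and Ubqln1 and Rad23b were not called with TPM scaling or without RPR2 replicate 3. Of 6 ubiquitin and activating enzyme genes, 2 were higher and 1 was lower. Rps27a, which encodes ubiquitin fused to a ribosomal protein, was higher by 1.52.

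Regulators of proteasome gene transcription were read from a list of 6 genes. Of these, Nfe2l3 and Ddi1 were below the filter, 3 were lower and none was higher. Nfe2l2, the antioxidant response factor Nrf2, had 5.45 to 22.4 FPKM (median 9.69) in RPM and 41.6, 56.5 and 82.4 FPKM in RPR2, without overlap (-2.36 ± 0.34, adjusted p = 8.7e-05). Ddi2, the protease that activates Nrf1, was lower by -1.28 ± 0.41, with 4.77 to 16.3 FPKM (median 12.0) in RPM and 49.2, 42.5 and 9.61 FPKM in RPR2. Ddi2 thus overlapped through RPR2 replicate 3, and without that library the difference was -1.997. Ngly1, the deglycosylase of Nrf1, was lower by -0.71 ± 0.20. Nfe2l1, which encodes Nrf1, had 17.2 to 44.8 FPKM (median 35.8) in RPM and 51.5, 54.3 and 35.4 FPKM in RPR2 and was not called (-0.48 ± 0.24, adjusted p = 0.126). The activity of Nrf1 is set after translation, which these values do not measure.

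Levels also varied within the complex. The 14 tested core genes averaged 122 to 410 FPKM in RPM and 64.2 to 257 FPKM in RPR2. Base and lid genes averaged 50.5 to 129 FPKM in RPM and 45.2 to 110 FPKM in RPR2. In FPKM as deposited, core genes varied more among RPM tumours, with a median coefficient of variation of 25.5% in the α ring and 21.9% in the β ring, against 10.5% for the ATPases and 12.9% for the lid. Their summed FPKM in RPM was 2976 ± 610 (mean ± SD) for the core and 1704 ± 110 for base and lid. As shares of each library's FPKM, the sums were 0.414 ± 0.029% and 0.241 ± 0.025%. The core share thus did not vary more relative to its mean. The summed core FPKM was 1.45 to 2.24 times (median 1.69) that of base and lid in RPM, and 1.40, 1.33 and 2.10 times in RPR2.

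As a share of a library's FPKM, the core took 0.369 to 0.465% (median 0.415%) in RPM and 0.316%, 0.290% and 0.273% in RPR2. Base and lid took 0.208 to 0.279% (median 0.228%) in RPM and 0.226%, 0.218% and 0.130% in RPR2. The core shares did not overlap between the groups. The base and lid shares of RPR2 replicates 1 and 2 lay within the RPM range and replicate 3 lay below it.

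**Figure D4:**
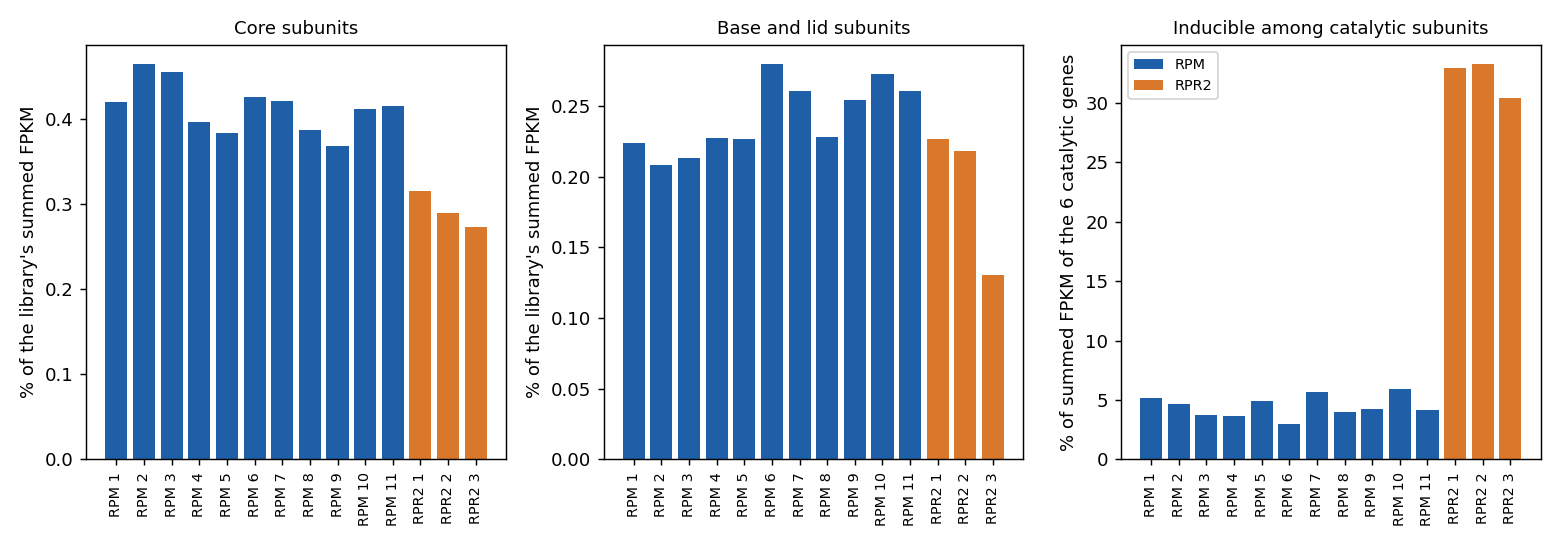
Summed FPKM of core genes and of base and lid genes as a percent of each library's FPKM, and of Psmb8, Psmb9 and Psmb10 as a percent of the 6 catalytic genes, with 1 bar for each RPM (blue) and RPR2 (orange) library. Core shares are 0.369 to 0.465% in RPM and 0.273 to 0.316% in RPR2, and inducible shares are 2.95 to 5.93% in RPM and 30.4 to 33.3% in RPR2.

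RPM replicate 2 was the highest RPM library for 24 of 38 members (63.2%), against 12.2% of all tested genes. It carried the LSL/+ genotype, the lowest Myc level of the RPM tumours (48.4 FPKM) and the largest summed FPKM (939971). Its core share of 0.465% was the highest and its base and lid share of 0.208% the lowest of the RPM libraries. Without this library 25 members were still called higher. Whether its library total moves the members' levels was not tested.

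Within RPM, 9 LSL/LSL tumours were compared with 2 LSL/+ tumours over 14862 genes. No member was called in either direction by limma, where 0% of all genes were higher and 0.00673% were lower. At an unadjusted p under 0.05 there were 5 members, in a comparison where 17.3% of all genes passed that limit. Psma2 (-0.39), Psmc4 (-0.32) and Psmd8 (-0.39) were below LSL/+ and Psmd11 (0.51) and Psme4 (0.47) above it, with a smallest adjusted p of 0.239. In all, 30 of the 38 differences were below 0, with a median of -0.19, against a median of 0.16 over all tested genes. These counts rested on RPM replicate 2, an LSL/+ library: without it 19 of the 38 were below 0 and the median was 0.0035, against 0.05 over all genes. With TPM scaling 14 were below 0 and the median was 0.07, against 0.37 over all genes. The LSL/+ arm held 2 libraries, which limits the size of a difference that this comparison can detect.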

How the data were processed

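Gene expression was measured by single-end, stranded, poly(A)-selected RNA-seq of macrodissected tumours, per the labels' protocols. The authors deposited 1 table of FPKM values per gene and library; RSEM 1.2.12, Bowtie 1.0.1 and mm10 are listed, without roles, in the submitters' processing notes. No source used here gives the annotation release or the strand setting. RSEM divides reads among similar genes, so members with pseudogene copies (23 copies of 14 members at 90% identity or more over at least 200 bases, blastn 2.17.0) are less certain. The same holds for members whose exons overlap a gene on the other strand (Psma4, Psma5, Psmb7, Psmc3, Psmd1, Psmd3, Psmd9, Psmd13 and Psme1) or on the same strand (Psmd1 with Gm21972 and Psmb5 with Mir686). Symbols (46005 of 46517 identifiers) and coordinates came from GENCODE on GRCm38, the assembly of mm10, and sequences from RefSeq.

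Values were analysed as log2(FPKM + 1), which understates the change of low genes, with limma 3.58.1 in R 4.3.3 (trend, two-sided, Benjamini-Hochberg over all genes that had 1 FPKM or more in 3 or more libraries). Ratios were tested with scipy 1.17.1. Depth was estimated from single-read steps, assuming reads of 50 bases; 3 reads on a gene of 2 kb equal 0.0754 to 0.0872 FPKM in RPM and 0.0655 to 0.0704 FPKM in RPR2, counting error only. The fitting code was tested on simulated data in which few genes were moved. For RPM against RPR2 it called 8% of genes moved by 0.5 on the log2 scale, 43% by 1 and 86% by 2. For LSL/LSL against LSL/+ these shares were 0%, 37% and 88%. They need not hold for the data, where far more genes were called between the models. Replicates were numbered in accession order.

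Members and lists were chosen with earlier results of these data known. All members were accounted for; given in detail are the catalytic subunits and their inducible partners, the activators, the highest, the lowest, the smallest p and the uncalled members of each role, and up to 3 called genes per pathway list and direction. A few others are given with a difference only, and some listed genes are not reported here. Alternatives were pseudocounts of 0.1 and 0.01, other filters and scalings, array weights, left-out libraries, LSL/LSL tumours only, averaged libraries of a shared title number and added pseudogenes. Protein sequences were not analysed here.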

Additional observations from a re-analysis of the deposited data

Results flagged for a closer look

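A library far from the others was looked for among the 9 LSL/LSL tumours by the gap of the highest or lowest value to its nearest neighbour, divided by the range. This ratio exceeded Dixon's 95% critical value for 4 of 38 members, and chance alone flags about 1 group in 20. Psma4 had 200.6 FPKM in RPM replicate 3, with the next library at 163.7 FPKM. Psmd10 had 17.4 FPKM in the same library, with the next at 12.5 FPKM, and Psmd9 had 45.0 FPKM there, with the next at 36.3 FPKM. Psmd13 had 116.6 FPKM in RPM replicate 6, with the next library at 99.1 FPKM.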

How the results depend on the processing

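Of 988 values of single members under 26 alternatives, 913 kept their direction and side of the threshold, 45 lost a call, 11 gained a call and 19 changed sign. The members called higher (25) were 17 to 29 and those called lower (3) were 2 to 4 under the alternatives. The count of 29 came with array weights, where 4290 of 15719 genes were higher and 6577 were lower. The pathway genes called higher (11) were 7 with TPM scaling, 17 with array weights and 7 to 12 when 1 library was left out, the lowest without RPR2 replicate 2. Over all genes, 1858 of 15719 were higher with TPM scaling and 2276 of 15292 without RPR2 replicate 2. Signs changed only for genes called in neither setting. Psmc3 (log2 difference, RPM minus RPR2) was -0.02225 with TPM scaling. Psmd1 was -0.02848 with TPM scaling and -0.04514 to 0.2759 with a library left out, the lowest without RPR2 replicate 3. Psmd10 was -0.07829 with TPM scaling and -0.04299 with array weights. Psmd11 was 0.00656 with median-of-ratios scaling, 0.03991 with array weights, 0.07762 with LSL/LSL tumours only and -0.0497 to 0.04942 with a library left out, above 0 without RPM replicate 2, 3 or 4 or RPR2 replicate 1. Psme4 was -0.1739 with TPM scaling, -0.1992 with array weights, -0.02926 with libraries of a shared title number averaged and -0.3341 to 0.2321 with a library left out, the lowest without RPR2 replicate 3. The cause was not tested. The 5 ratios kept direction and call in every alternative run. As their groups did not overlap, leaving out libraries could not have ended a call, so those alternatives do not test the ratios. RPR2 rests on 3 libraries. RPM and RPR2 tumours came from mice of different genotypes, so the comparison holds no pairs and no paired analysis was run.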
